A study of Mus musculus with 9 samples.

Results

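The genes described here encode the shared receptor of GM-CSF, IL-3 and IL-5 and the STAT5 branch that it activates. They were taken as the single-gene probe sets whose platform symbol was Csf2, Il3, Csf2ra, Il3ra, Il5ra, Csf2rb, Csf2rb2, Stat5a, Stat5b or Cish, 10 of 19938 genes with such a probe set. Where a gene had several, the one to stand for it was to be selected on its mean over the 9 arrays, the only measured value in the rule, but each of the 10 had only 1. The list of genes was proposed with earlier results of these arrays known. Calls and p-values of the members place each gene within the fit over all genes and are not independent evidence.

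The arrays measured nasal mucosa of BALB/c mice labelled male and 6 to 8 weeks of age, on Affymetrix Mouse Gene 1.0 ST arrays, in an allergic rhinitis model. The 4-week group had been sensitised to and challenged with ovalbumin (OVA), the allergen, a protein of hen eggs, and sampling followed 4 weeks after the final challenge. The OVA group had the same sensitisation and challenge and sampling followed 2 hours after the final challenge. The control group had been sensitised and challenged with saline. Each group had 3 arrays. All 3 groups carry the same age label. Unless that label gives the age at collection, age at collection cannot be told apart from the allergen-free period.

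GM-CSF, IL-3 and IL-5 each bind a private alpha chain (Csf2ra, Il3ra and Il5ra) that pairs with a common beta chain, the product of Csf2rb. Mice carry an additional beta chain gene, Csf2rb2, whose product works with the IL-3 receptor alone. The beta chain brings the kinase JAK2 to the membrane, where STAT5A and STAT5B are phosphorylated, move to the nucleus and switch on genes such as Cish, whose product dampens the same receptors. In the airway these receptors are best known from eosinophils, basophils, mast cells, neutrophils and macrophages, which the cytokines keep alive and activate.

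Before the results, the labels and the tissue were checked. Xist, a noncoding RNA of X inactivation, stood between 4.27 and 4.42 on the log2 scale in the 4-week arrays and between 4.22 and 4.36 in the OVA arrays, but between 10.62 and 11.11 in the arrays labelled control. The Y-linked gene Eif2s3y stood between 8.15 and 8.46 in the 4-week arrays, between 8.08 and 8.47 in the OVA arrays and between 3.00 and 3.58 in the arrays labelled control. All 3 arrays labelled control thus go against the label male, and every difference from them cannot be told apart from a difference in sex. The comparison of 4 weeks with OVA has the same pattern of sex-linked genes on both sides. According to the gene table, the 10 members lie on chromosomes 6, 9, 11, 14, 15 and 19, none on X or Y. Markers of the labelled tissue were high on every array: Omp, of mature olfactory neurons, lay between 11.47 and 12.43, Bpifa1, a secreted protein of the nasal epithelium, between 12.37 and 13.14, and Epcam, of epithelia, between 8.70 and 9.48. Whether the 3 arrays of a group stem from different animals is not stated in the labels. The p-values therefore speak of the spread between arrays, possibly technical, and not of the spread between mice.

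STAT5 binds the palindrome TTCNNNGAA, while TTC and GAA set 4 bases apart is the form preferred by STAT6. The start-site regions of Cish, the STAT5 target among the members, and of Csf2rb2, the member whose calls held in every alternative fit, are printed from RefSeq (GRCm38.p6), 250 bases before to 30 after the annotated start, with the matches to TTCNNNGAA in capitals. The Cish region is chr9:107296409-107296688 on the plus strand and that of Csf2rb2 is chr15:78305692-78305971 on the minus strand.
Cish: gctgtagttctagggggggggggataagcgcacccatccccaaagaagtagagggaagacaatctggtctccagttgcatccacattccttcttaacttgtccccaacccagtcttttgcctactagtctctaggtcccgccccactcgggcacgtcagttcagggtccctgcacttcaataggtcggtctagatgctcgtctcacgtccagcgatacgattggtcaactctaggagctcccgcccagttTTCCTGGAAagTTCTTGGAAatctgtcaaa
Csf2rb2: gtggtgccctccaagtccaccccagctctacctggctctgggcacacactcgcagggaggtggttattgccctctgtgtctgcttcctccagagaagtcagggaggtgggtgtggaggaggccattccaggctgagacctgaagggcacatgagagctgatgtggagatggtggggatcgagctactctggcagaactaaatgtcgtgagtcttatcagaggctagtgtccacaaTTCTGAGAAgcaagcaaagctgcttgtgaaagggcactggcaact

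The Cish region held 2 matches side by side, TTCCTGGAA at bases 1 to 9 and TTCTTGGAA at bases 12 to 20 of the transcript. The Csf2rb2 region held 1, TTCTGAGAA, from 15 to 7 bases before the start. Windows of 300 bases, 250 before and 50 after the start, were searched for 9 members, 11 windows in all. Both strands were read, since either motif reads alike on both. The reference held no window for Csf2rb, so whether its start region holds either motif was not tested. Of the other 7 genes searched, none held TTCNNNGAA, while the windows of Il3 and Il5ra each held 1 match with 4 bases between TTC and GAA. No matches overlapped. Among all 32851 windows of the reference, 8.30% held at least 1 TTCNNNGAA and 0.457% held 2 or more, and 6.95% held at least 1 match of the wider form. A match is a sequence in the window and not a measured binding site.

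**Figure D1:**
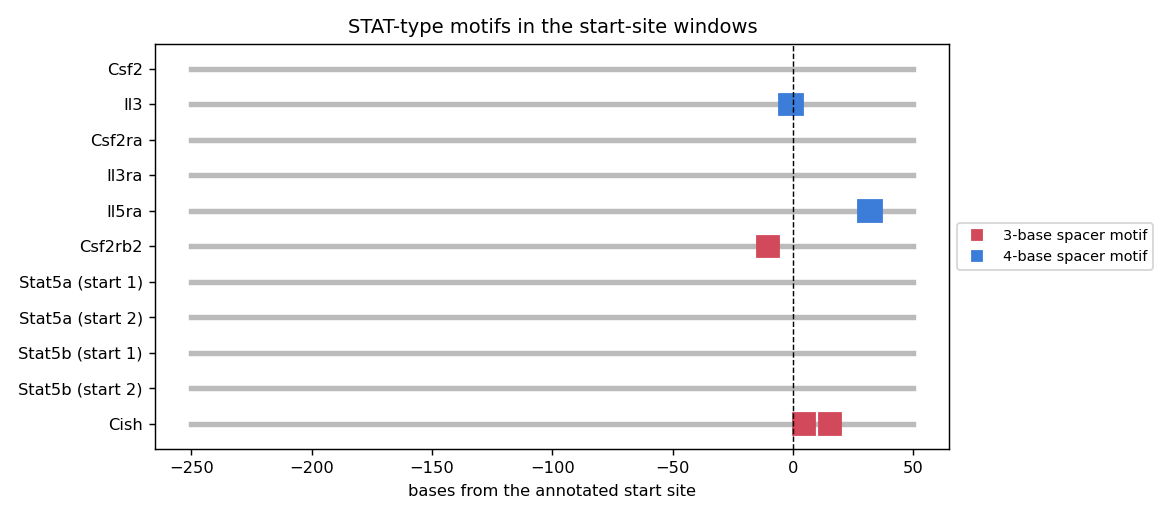
Matches to the STAT5-type motif with a 3-base spacer (red) and to the form with a 4-base spacer (blue) in the start-site windows of 9 members; the horizontal axis is the distance in bases from the annotated start and each grey line is 1 window. Cish holds 2 red matches just after its start and Csf2rb2 holds 1 just before it. Csf2rb had no window and is not shown.

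The ligands were low and did not differ between groups by the test. Csf2, which encodes GM-CSF, had log2 values of 4.67, 4.88 and 5.12 in the 4-week arrays, 5.04, 4.88 and 4.97 in the OVA arrays and 4.88, 4.80 and 4.75 in the arrays labelled control. The 3 groups overlapped, and OVA minus control was 0.15 (95% interval −0.09 to 0.40, adjusted p = 0.521 in limma). Il3 lay between 3.17 and 3.55 on all 9 arrays, with OVA minus control at −0.03 (interval −0.25 to 0.19, adjusted p = 0.912). The mean of Csf2 exceeded that of 21.1% and the mean of Il3 that of 4.37% of the named probe sets, and for each of them 1 value was repeated exactly on 3 arrays, so changes at this level could not be followed closely. Il5, the third ligand, had 3.37, 3.64 and 3.49 in the OVA arrays and 3.71, 3.43 and 3.43 in the arrays labelled control, a difference of −0.02 (adjusted p = 0.941).

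Of the private alpha chains, only that of the GM-CSF receptor differed between any groups. Csf2ra stood at 7.07, 7.07 and 6.79 in the 4-week arrays, 7.55, 7.27 and 7.65 in the OVA arrays and 7.34, 7.46 and 7.20 in the arrays labelled control. The 4-week arrays were the lowest 3 of the 9, while the OVA arrays and those labelled control overlapped. Csf2ra fell by 0.51 on the log2 scale at 4 weeks relative to OVA (SE 0.12, 95% interval −0.79 to −0.24, n = 3 per group, adjusted p = 0.0425 in limma), which is 1.43-fold lower. That call was kept in 2 of the 9 fits that each left out another array (adjusted p up to 0.142), was lost on the OVA and 4-week arrays alone (adjusted p = 0.0808) and was lost in 12 of all 16 alternatives. Relative to the arrays labelled control the 4-week mean was lower by a log2 change of −0.36 and did not pass (adjusted p = 0.0821), and OVA minus control was 0.16 (adjusted p = 0.557).

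Il3ra, the IL-3 alpha chain, and Il5ra, the IL-5 alpha chain by which eosinophils are recognised, had overlapping values in all comparisons. Il3ra lay between 6.10 and 6.26 in the 4-week arrays, between 6.19 and 6.48 in the OVA arrays and between 6.26 and 6.32 in the arrays labelled control. Il5ra stood between 3.95 and 4.03 in the 4-week arrays, 4.03 and 4.14 in the OVA arrays and 3.98 and 4.04 in the arrays labelled control, with a mean above that of only 10.1% of the named probe sets. The 95% interval of OVA minus control was −0.17 to 0.22 for Il3ra and −0.09 to 0.19 for Il5ra.

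Both beta chains were higher in the OVA arrays than in those labelled control, and lower at 4 weeks than in OVA. The first of these differences cannot be told apart from a difference in sex. Csf2rb, the common beta chain, had log2 values of 7.38, 7.42 and 7.56 in the OVA arrays, against 6.79, 5.96 and 5.94 in the arrays labelled control. All OVA values lay above all control values, though control replicate 1 stood well above the other two. Csf2rb was 2.33-fold higher in OVA (log2 change 1.22, SE 0.20, interval 0.77 to 1.67, adjusted p = 0.0255 in limma). Without single arrays the difference lay between 2.11-fold and 2.83-fold, the highest without control replicate 1, and the call was kept in 4 of 9 fits (adjusted p up to 0.112).

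Csf2rb2, the beta chain of the IL-3 receptor, had 7.12, 7.38 and 7.12 in the OVA arrays and 6.16, 6.05 and 5.68 in the arrays labelled control. The groups did not overlap, and the gap between them was wider than the range within either group. Csf2rb2 was 2.37-fold higher in OVA (log2 change 1.24, SE 0.14, interval 0.93 to 1.55, adjusted p = 0.00764), and it passed in all 9 fits without an array (adjusted p up to 0.0396). Csf2rb and Csf2rb2 lie next to each other on chromosome 15 with 0 protein-coding genes between them, and they are known as close copies. How far probes of one gene bind transcripts of the other was not tested, so the values may not be separate measurements.

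At 4 weeks, Csf2rb stood at 6.54, 6.58 and 6.64 and Csf2rb2 at 5.93, 6.21 and 6.13, each below all 3 OVA arrays. Csf2rb was 1.82-fold lower than in OVA (log2 change −0.87, SE 0.20, adjusted p = 0.0381), a call kept in 2 of 9 fits without an array (adjusted p up to 0.127). Csf2rb2 was 2.17-fold lower (log2 change −1.12, SE 0.14, adjusted p = 0.00497), a call kept in all 9 (adjusted p up to 0.0210). Fitted on the OVA and 4-week arrays alone, without the arrays labelled control, both still passed (adjusted p = 0.0118 for Csf2rb and 0.015 for Csf2rb2).

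Set against the arrays labelled control, the 4-week levels of the beta chains did not pass. The log2 change was 0.36 for Csf2rb (interval −0.09 to 0.81, adjusted p = 0.244) and 0.13 for Csf2rb2 (interval −0.18 to 0.44, adjusted p = 0.545). For Csf2rb, 1 of 9 fits without an array passed, that without control replicate 1 (log2 change 0.64, adjusted p = 0.00727 in limma). Without control replicate 2 the change was 0.22 (adjusted p = 0.525), and without control replicate 3 it was 0.21 (adjusted p = 0.539). The order of levels of Csf2rb was thus OVA, then 4 weeks, then control, with only OVA separated from both others by the test on all 9 arrays.

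**Figure D2:**
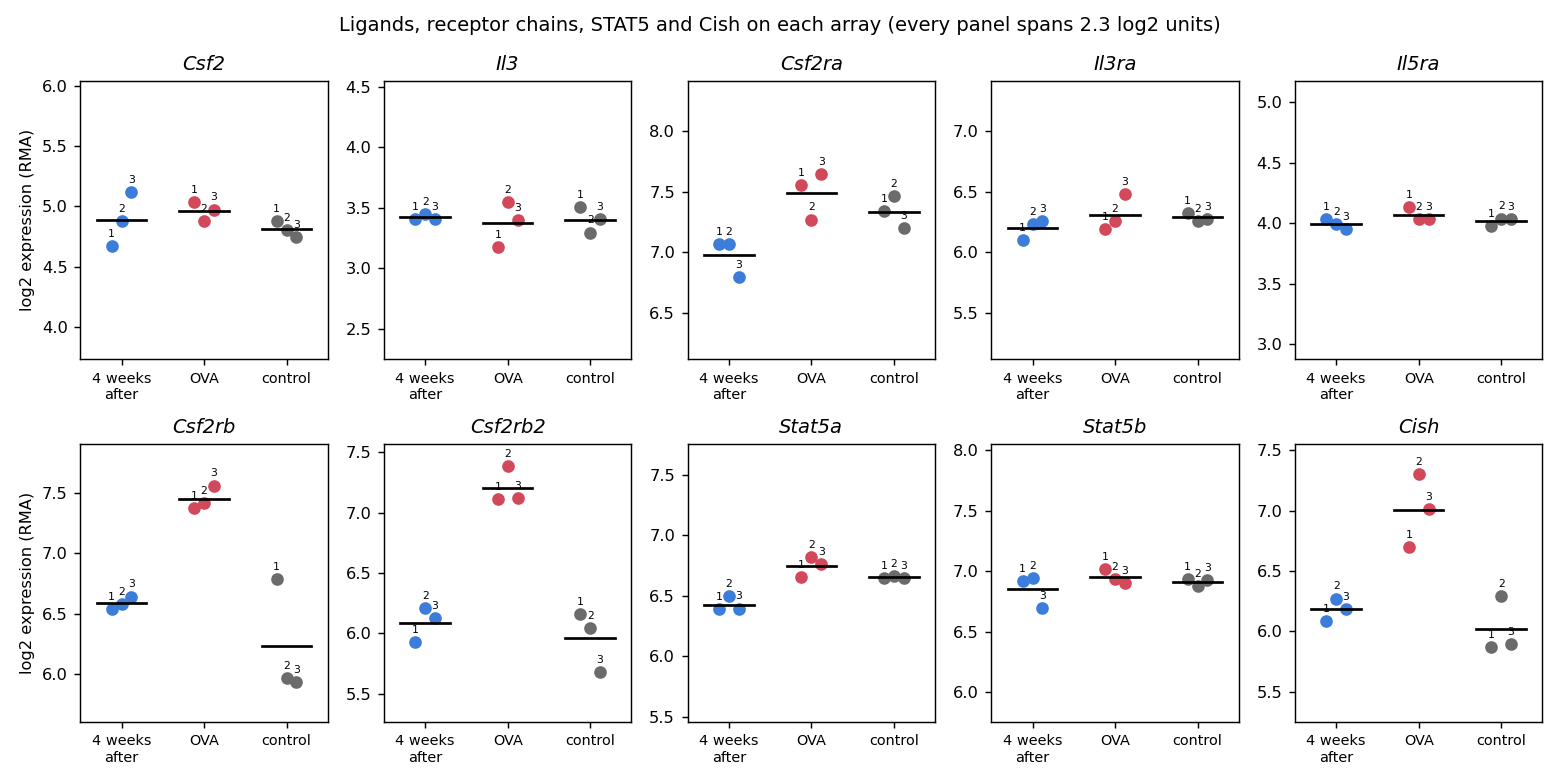
The log2 expression of the 10 members on each of the 9 arrays (points, numbered by replicate) with the group mean (black line), grouped as 4 weeks after, OVA and control; each panel spans the same height. Csf2rb, Csf2rb2 and Cish are highest on the 3 OVA arrays, and Csf2ra and Stat5a are lowest on the 3 arrays of the 4-week group.

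The transcription factors moved little. Stat5a had 6.39, 6.50 and 6.39 in the 4-week arrays, 6.65, 6.82 and 6.76 in the OVA arrays and 6.65, 6.66 and 6.64 in the arrays labelled control. The 4-week values lay below all others, and the lowest OVA value fell within the control range. Stat5a fell by 0.32 at 4 weeks relative to OVA (SE 0.07, 1.25-fold lower, adjusted p = 0.0294 in limma), a call kept in 4 of 9 fits without an array (adjusted p up to 0.0933) and lost on the OVA and 4-week arrays alone (adjusted p = 0.0675). The difference from the arrays labelled control, −0.22, was just outside the threshold (adjusted p = 0.0546) and OVA minus control was 0.09 (adjusted p = 0.524).

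Stat5b, the neighbouring gene on chromosome 11, lay between 6.69 and 6.94 in the 4-week arrays, 6.90 and 7.02 in the OVA arrays and 6.88 and 6.93 in the arrays labelled control. Its 3 groups overlapped, and its largest change was −0.10, for 4 weeks minus OVA (interval −0.28 to 0.08, adjusted p = 0.473).

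Cish, the STAT5 target and feedback inhibitor, was likewise high in the OVA arrays alone. It had 6.70, 7.30 and 7.01 in the OVA arrays and 5.87, 6.29 and 5.89 in the arrays labelled control, without overlap. Cish was 1.98-fold higher in OVA (log2 change 0.98, SE 0.16, interval 0.62 to 1.35, adjusted p = 0.026 in limma), a call kept in 5 of 9 fits without an array (adjusted p up to 0.0863). At 4 weeks it stood at 6.09, 6.27 and 6.19, all below the OVA arrays, and was 1.77-fold lower than in OVA (log2 change −0.82, SE 0.16, adjusted p = 0.0235), kept in 4 of 9 fits (adjusted p up to 0.0802) and on the OVA and 4-week arrays alone (adjusted p = 0.0454). Relative to the arrays labelled control, 4 weeks gave 0.16 (interval −0.20 to 0.53, adjusted p = 0.503). OVA minus control and 4 weeks minus OVA share the OVA arrays, so a high OVA value enters both.

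In all, 3 of the 10 members were called higher in OVA than in the arrays labelled control and none lower, where 0.782% of 23410 named probe sets were called higher and 0.521% lower. The same 3 had no overlap between groups, as 10.4% of probe sets had in that direction. At 4 weeks relative to OVA, 5 were called lower and none higher, where 2.51% of probe sets were called lower and 3.81% higher, and the same 5 lay wholly below OVA, as 13.7% did. That split of all calls, 893 higher and 588 lower, was 1359 and 381 after median centring. Since the members were proposed with these contrasts known, nothing is read from these shares. Csf2rb, Csf2rb2 and Cish were called in both, higher in OVA and lower at 4 weeks, which 0.273% of probe sets were. At 4 weeks against control none passed in limma, where 14.4% of probe sets did. At an unadjusted p under 0.05, 2 members passed, Csf2ra and Stat5a, where 32.9% of probe sets did. Both lay below all control values on all 3 arrays, as 18.4% of probe sets did. The median change of the 10 members was 0.12 for OVA minus control, −0.21 for 4 weeks minus OVA and −0.00 for 4 weeks minus control, beside −0.02, −0.03 and −0.05 for all 19938 genes. For the 7 members not called in OVA minus control, the 95% intervals ran from −0.25 to 0.43.

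**Figure D3:**
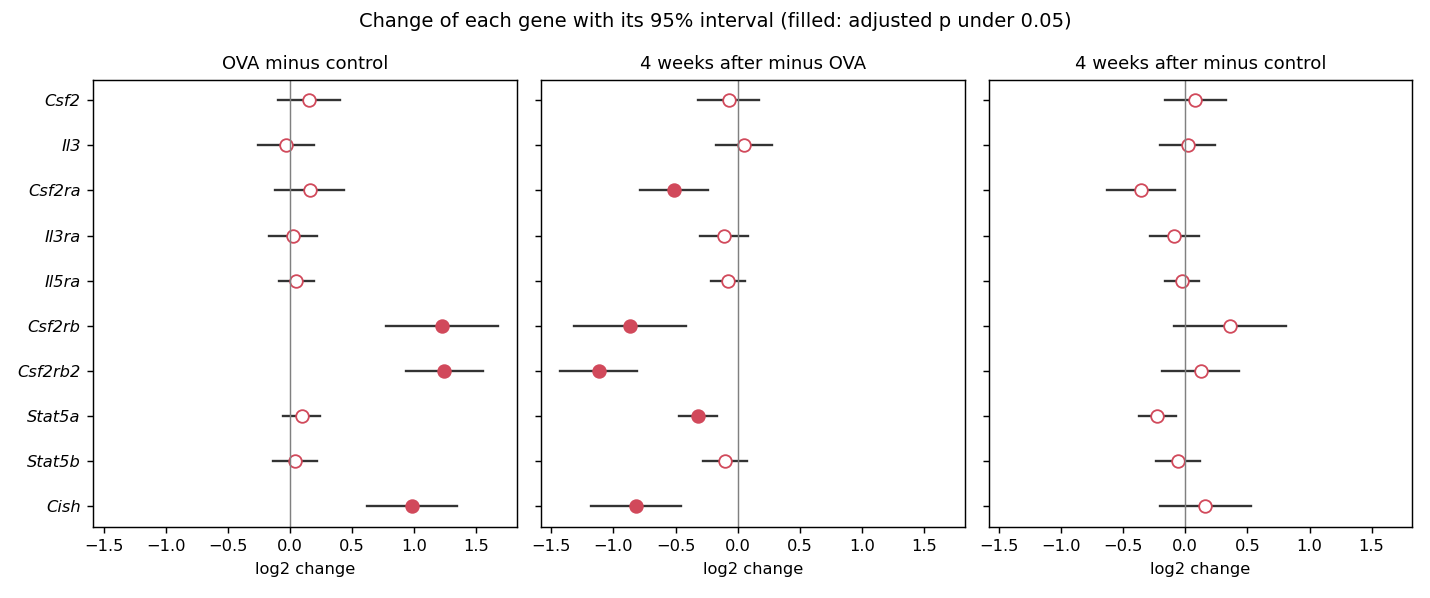
The log2 change of each member in the 3 comparisons, with its 95% interval from limma (line); filled points had an adjusted p under 0.05. Csf2rb, Csf2rb2 and Cish are filled in OVA minus control, 5 members are filled on the negative side in 4 weeks minus OVA, and none is filled in 4 weeks minus control.

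**Figure D4:**
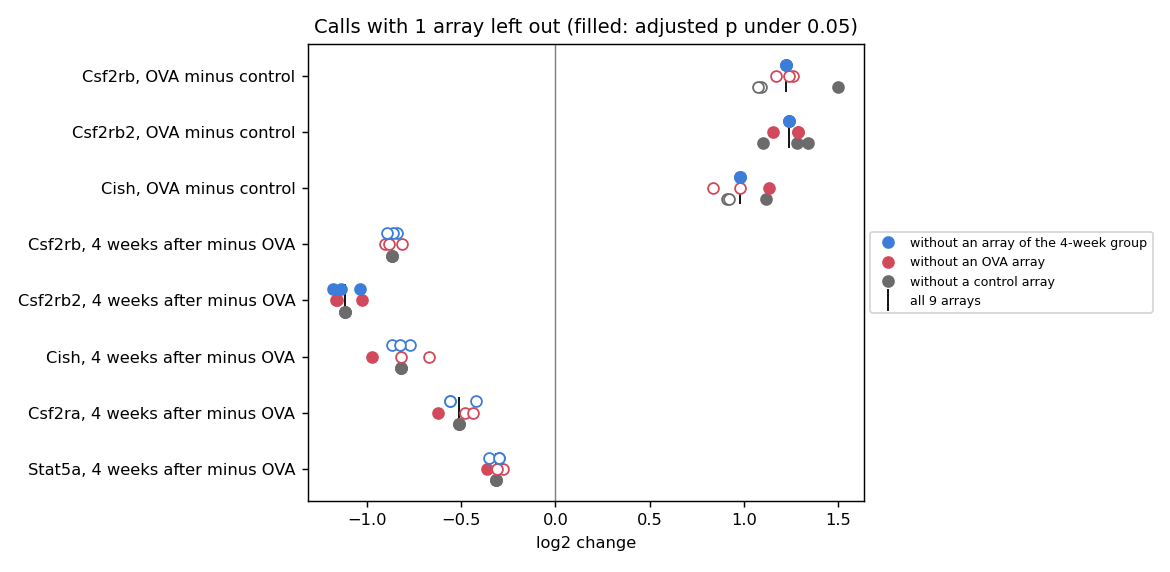
The log2 change of each called member when 1 array is left out (points, coloured by the group of that array, filled where the adjusted p was under 0.05), with the value from all 9 arrays (black bar). All changes keep their direction, as they must where the groups do not overlap. Only Csf2rb2 is filled throughout, and Csf2rb in OVA minus control ranges from 2.11-fold to 2.83-fold.

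The genes whose profile over the 9 arrays was nearest to that of Csf2rb, by the root mean square difference of log2 values centred per gene, were Map3k8, a kinase of inflammatory signalling (0.157), Slc7a11, a cystine transporter (0.179), and Lilr4b, an inhibitory receptor of leukocytes (0.199), while the median over 19937 genes was 0.583. Csf2rb2 had rank 10, at 0.232. Map3k8 averaged 6.33 in the 4-week arrays, 7.17 in the OVA arrays and 5.97 in the arrays labelled control. Nearest to Cish were Nfkb2, an NF-kappaB subunit (0.110), Cldn4, a tight junction protein (0.141), and the small nucleolar RNA Snord104 (0.143), where the median was 0.488. Nfkb2 averaged 6.77 in the 4-week arrays, 7.53 in the OVA arrays and 6.74 in the arrays labelled control. Il3, which barely differed between groups, stood at 0.570 from Csf2rb and 0.479 from Cish, near both medians. The medians thus reflect mainly how far Csf2rb and Cish themselves moved. They do not show how particular the nearest genes are.

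The counts of the pathway lists stand beside the shares of all probe sets called, which were 0.782% higher and 0.521% lower in OVA minus control, 3.81% higher and 2.51% lower in 4 weeks minus OVA, and 7.92% higher and 6.45% lower in 4 weeks minus control. Nothing particular to a list is read from its count. Of 22 listed receptor and signalling components other than the members, 20 had a single-gene probe set, and Jak2, the kinase bound to the beta chain, alone rose in OVA against control (log2 change 0.46, SE 0.08, adjusted p = 0.0375 in limma). It stood at 7.89, 8.04 and 7.90 in the OVA arrays and 7.61, 7.47 and 7.36 in the arrays labelled control; its call was lost in 8 of 9 fits without an array (adjusted p up to 0.124). The median of the list was 0.14 in OVA minus control. At 4 weeks minus OVA, Pik3r1, a regulatory subunit of PI3 kinase, rose (0.45, lost in 6 of 9 fits) and Cblb, a ubiquitin ligase that restrains receptor signalling, fell by 0.36 (lost in 6 of 9), with a list median of −0.10. At 4 weeks minus control, Pik3r1 (0.59) and Jak2 (0.43) rose and passed in all 9 fits, and none fell (median 0.07).

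Among 16 inhibitors of JAK-STAT signalling, Socs2, a STAT5-induced inhibitor, alone rose in OVA minus control. It had 10.12, 10.13 and 9.89 in the OVA arrays and 9.22, 9.29 and 9.19 in the arrays labelled control (log2 change 0.81, SE 0.09, adjusted p = 0.00883 in limma), and passed in all 9 fits without an array. A further Socs2 probe set gave 0.54 (adjusted p = 0.0237). Socs2 was also at 9.88, 10.13 and 9.88 in the 4-week arrays, where it exceeded control by 0.73 (adjusted p = 0.00335, kept in all 9 fits). Socs3 fell by 1.12 at 4 weeks relative to OVA (adjusted p = 0.0313, lost in 5 of 9 fits), with a further probe set at −0.17 (adjusted p = 0.563). Pias1 rose by 0.32 in 4 weeks minus control (lost in 8 of 9). The list medians were 0.14, −0.11 and 0.01 in OVA minus control, 4 weeks minus OVA and 4 weeks minus control.

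Of 24 genes listed as STAT5 targets, 23 were measured. The list does not say in which direction STAT5 moves each gene, so its counts and medians may mix both. In OVA minus control 2 rose and none fell: Socs2, as above, and Mcl1, a survival protein of granulocytes (0.57, adjusted p = 0.0365, lost in 7 of 9 fits). Pim1, a survival kinase, had 7.20, 7.67 and 7.41 in the OVA arrays and 6.84, 6.63 and 6.80 in the arrays labelled control, with no overlap, but did not pass (adjusted p = 0.0571). In 4 weeks minus OVA 4 of 23 fell and none rose, where 2.51% of all probe sets were called lower and 3.81% higher: Pim1 (−0.72, adjusted p = 0.0214), Pim2 (−0.44), Lrrc32, a carrier of TGF-beta on regulatory T cells (−0.50), and Socs3, each lost in 4 or 5 of 9 fits, so that without single arrays 0 to 4 were called. Several of these genes are also known targets of other STAT proteins. In 4 weeks minus control Socs2 rose and Pim2 fell by 0.39, both kept in all 9 fits, and Mcl1 rose by 0.38 (adjusted p = 0.0404, lost in 5 of 9). The list medians were 0.16, −0.21 and 0.02 in the same order of comparisons. Of 15 measured targets with a start-site window, 3 held TTCNNNGAA (Bcl6, Foxp3 and Socs3). Among all genes of the reference, 2582 of 27025 held it in at least 1 window, and nothing is read from the count of 3.

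Markers of the cells that carry these receptors varied between arrays of a group, most of all on OVA replicate 2 and control replicate 3. The summed linear level of 14 mast cell and basophil markers was 1846, 781 and 2383 on OVA replicates 1, 2 and 3, against 549 to 626 in the arrays labelled control. For 8 eosinophil markers it was 1154, 748 and 1336 in the OVA arrays, against 669 to 861 in the arrays labelled control, and for 13 macrophage and monocyte markers 3048, 2085 and 2651, against 2835, 2349 and 1414 on control replicates 1, 2 and 3. OVA replicate 2 was therefore the lowest OVA array for all 3 lists and fell within the control range for eosinophils and macrophages, where for macrophages OVA replicate 3 did too. On that same array Csf2rb stood at 7.42, between the other OVA arrays, and Csf2rb2 at 7.38 and Cish at 7.30, the highest of the 9 arrays for Csf2rb2 and for Cish. The sum of 13 neutrophil markers was 8240, 7308 and 6924 on OVA replicates 1, 2 and 3, so OVA replicate 2 was not the lowest. It was 8604, 7950 and 3953 on control replicates 1, 2 and 3. Control replicate 3 thus had the lowest macrophage and neutrophil sums of the 9 arrays, and also the lowest Csf2rb (5.94) and Csf2rb2 (5.68). Its difference was not limited to leukocyte markers. The sum of respiratory epithelium markers on it, 12008, was also the lowest of the 9 arrays, and that of olfactory markers, 23685, the highest. Without control replicate 3, OVA minus control was 1.10 for Csf2rb2 (adjusted p = 0.0127 in limma), 1.08 for Csf2rb (adjusted p = 0.0722) and 0.92 for Cish (adjusted p = 0.0789). Of these 3 only Csf2rb2 passed. Such losses were not particular to that array, since over the 9 fits without an array Csf2rb was kept in 4 and Cish in 5. All calls of the comparison also fell, from 305 to 141, without control replicate 3. In the 4-week arrays the sums were 776 to 904 for mast cells and basophils and 673 to 861 for eosinophils. They were 2437 to 3228 for macrophages and monocytes and 7096 to 8086 for neutrophils. Linear sums weigh the brightest genes most and can differ from the median change. For macrophages and monocytes the 4-week and OVA sums overlapped, while the list median of 4 weeks minus OVA was −0.45. In a bulk sample, more cells of a type and more RNA per cell cannot be told apart.

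No marker on the lists of mast cells and basophils, eosinophils, macrophages and monocytes, or dendritic cells passed in OVA minus control on all 9 arrays. The median changes were 0.43, 0.21, 0.54 and −0.01 over 14, 8, 13 and 9 genes. Without single arrays the eosinophil median ran from 0.076 (without OVA replicate 1) to 0.42 (without OVA replicate 2), and the macrophage and monocyte median from 0.34 (without OVA replicate 3) to 0.88 (without OVA replicate 2). Without OVA replicate 2, 5 mast cell and basophil and 4 macrophage and monocyte markers were called higher, and so were 1 respiratory epithelium and 1 B and plasma cell marker. Of 13 neutrophil markers, Csf3r, the G-CSF receptor, rose (1.03, adjusted p = 0.0443, lost in 8 of 9 fits), while the list's median was −0.32. Leaving out control replicate 3 moved that median to −0.59, and leaving out OVA replicate 3 moved it to −0.044. The eosinophil granule gene Epx stood at 5.30, 4.42 and 4.99 in the OVA arrays and 4.74, 4.79 and 4.72 in the arrays labelled control. The lists of T cells (median 0.08 over 8 genes) and type 2 innate lymphoid cells (0.04 over 6) had no call, and B and plasma cells had 1, Xbp1 (0.54, lost in 3 of 9 fits), among 8 genes. Of the epithelial lists, respiratory markers had no call among 10 (median 0.24) and olfactory markers had 1 among 8, Gap43 (0.51, adjusted p = 0.0398, lost in 7 of 9 fits). In 4 weeks minus OVA, Csf3r fell by 1.02 and no other gene of these lists passed on all 9 arrays. When OVA replicate 2 was left out of that comparison, 4 mast cell and basophil, 6 macrophage and monocyte and 1 eosinophil marker were called lower. The list medians in that comparison were −0.27 for mast cells and basophils, −0.32 for eosinophils, −0.45 for macrophages and monocytes and −0.07 for neutrophils. In 4 weeks minus control, Jchain, the joining chain of secreted antibodies (2.31), Xbp1 (0.51), Epcam (0.60) and Krt18 (0.48) rose and passed in all 9 fits without an array. Kit (0.56) and Gap43 (0.38) passed on all 9 arrays but were lost in 6 and 5 of those fits. The neutrophil granule genes Mpo (−1.37) and Elane (−1.14) were called lower on all 9 arrays, each lost in 5 of 9 fits. Mcpt8 (−0.46) and Cd5 (−0.35) were lost in 4, Gnal (−0.44) in 7 and Zbtb46 (−0.28) in 8. Beyond these values, the part of cell numbers in the changes of the members was not tested.

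**Figure D5:**
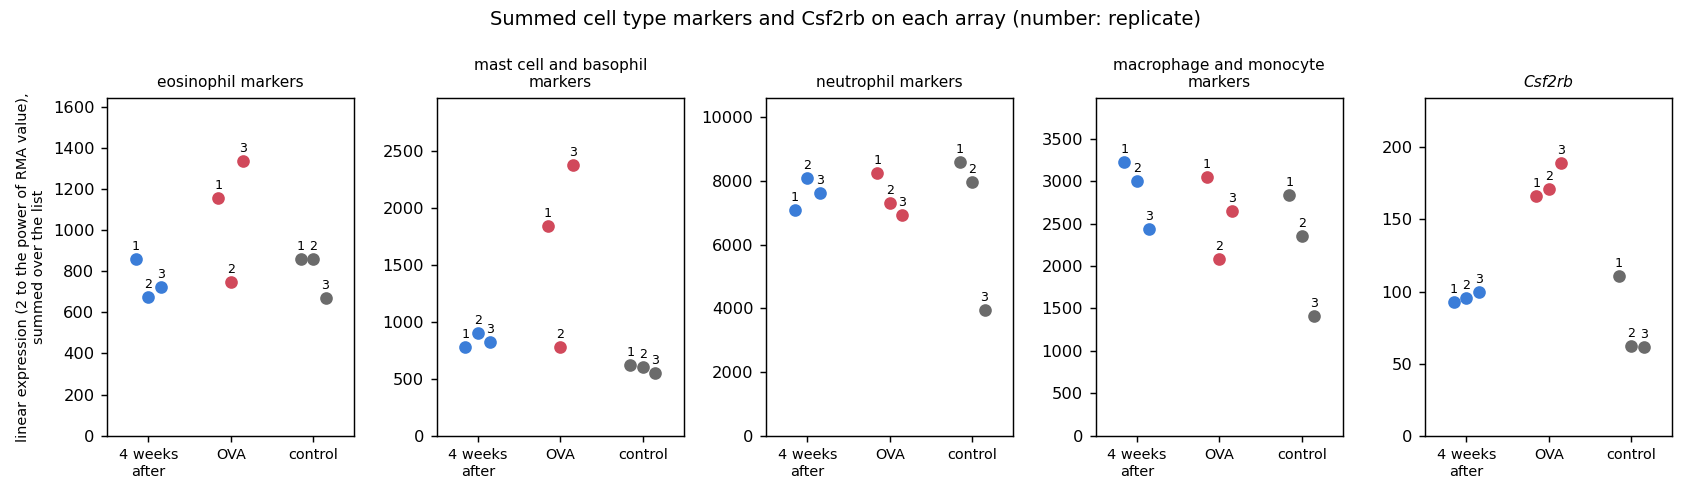
Summed linear expression of 4 lists of cell type markers and linear expression of Csf2rb on each array (points, numbered by replicate), grouped as 4 weeks after, OVA and control; all axes start at 0. OVA replicate 2 has the lowest mast cell, eosinophil and macrophage sums of the OVA group, at 781, 748 and 2085. Its neutrophil sum, 7308, and its Csf2rb value lie between those of the other OVA arrays. Control replicate 3 has the lowest macrophage and neutrophil sums and the lowest Csf2rb value of the 9 arrays.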

How the data were processed

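The members and gene lists were chosen with earlier results of these data known. The authors deposited log2 values for each probe set and used RMA, per the submitters' processing notes. Its software and version are not given in the sources used; the log2 scale was read from the values (1.63 to 13.8). No detection calls come with them, so signal over background is unknown, and the 3 arrays per group limit the precision.

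Of 35556 rows, 23410 had a gene symbol in the platform annotation and were tested, 21789 of them with 1 gene. Symbols and chromosomes came from a RefSeq table (GRCm38.p6), matched by Entrez number. A linear model with a mean per group was fitted to all 9 arrays with limma 3.58.1 under R 4.3.3 (6 residual and 2.98 prior degrees of freedom). P-values are two-sided and adjusted by Benjamini-Hochberg over 23410 probe sets in each comparison, with a threshold of 0.05; the 95% intervals are unadjusted. The fit was also run on simulated independent normal values with added shifts. Those values held no array-wide difference and no difference in sex, so that run does not bear on these limits. All members are named; from each list, called genes are named, up to 4 per pathway list and comparison and 3 per cell type list, with Epx, Pim1, Il5, Stat6, Omp, Bpifa1 and Epcam added after their values were seen. The alternatives were 2 other scalings, 2 filters, the compared groups alone, a trended robust variance, a replicate block and leaving out each array. Marker sums add 2 to the power of each log2 value.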

Additional observations from a re-analysis of the deposited data

How the results depend on the processing

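Csf2rb2 passed in OVA minus control and in 4 weeks minus OVA under all 16 alternatives. No called member changed direction, but only the 2 other scalings could have shown such a change. The other alternatives either keep the log2 change as it was or leave out 1 array, which cannot reverse groups that do not overlap. The count of 3 members called in OVA minus control was 1 with every row of the table and with only the 2 groups compared, and 1 to 3 without single arrays. The count of 5 in 4 weeks minus OVA was 3 after median centring, with every row, with only the 2 groups compared and with the replicate block, and 1 to 5 without single arrays. The count of 0 in 4 weeks minus control was 1 among the upper 60% of probe sets by mean (Stat5a, adjusted p = 0.0362), where fewer probe sets were tested, and 0 to 1 without single arrays. Over all named probe sets, the 305 calls of OVA minus control were 143 with every row, 109 with only the 2 groups compared and 63 to 305 without single arrays. The 1481 calls of 4 weeks minus OVA were 737 with only the 2 groups compared and 446 to 1361 without single arrays, and the 3364 of 4 weeks minus control were 2054 and 1560 to 2966. The split of calls moved with the scaling: 183 higher and 122 lower in OVA minus control became 184 and 188 with quantile normalization, and with median centring 893 and 588 in 4 weeks minus OVA became 1359 and 381, and 1855 and 1509 in 4 weeks minus control became 2654 and 852. Fits with fewer arrays have fewer degrees of freedom; beyond that the cause was not tested.

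Uncalled values near 0 changed sign in places: Il5ra to 0.022 and Csf2 to 0.022 (4 weeks minus OVA, quantile normalization), Il5ra to 0.095 and 0.048 (4 weeks minus control, quantile normalization and median centring) and Stat5b to 0.014 (4 weeks minus control, median centring). Without single arrays, OVA minus control ran from −0.12 to 0.069 for Il3 and −0.062 to 0.081 for Il3ra, and 4 weeks minus OVA from −0.051 to 0.14 for Il3 and −0.19 to 0.036 for Csf2. In 4 weeks minus control the ranges were −0.035 to 0.069 for Il3, −0.015 to 0.22 for Csf2rb2, −0.035 to 0.19 for Csf2 and −0.10 to 0.019 for Stat5b. The planned choice of other probe sets for a member could not be made, since each has 1. The upper 60% left out Il5ra, Csf2 and Il3. The labels do not say that a replicate number marks a shared animal or day, and deviations of same-numbered arrays correlated at −0.04 to 0.33, over 0.1 in 5 of 9 pairs, so the arrays were not treated as paired. All 3 pairs of number 3 were over 0.1, and arrays correlated best with their own number in 11 of 18 cases, where 6 would come from numbers with no relation, so these values do not settle whether the numbers pair arrays. With the replicate number as a block, 3, 3 and 0 members were called in the 3 comparisons, and Csf2rb (adjusted p = 0.0504) and Csf2ra (0.0649) did not pass in 4 weeks minus OVA.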

Other observations

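Other receptors that signal through STAT5, and other STAT genes, were read from the same fit. Of 26 listed cytokines and receptors of this kind, 22 had a single-gene probe set. Csf3r, the G-CSF receptor of neutrophils, was the only one called in OVA minus control, with 7.40, 7.25 and 7.15 in the OVA arrays and 6.66, 6.27 and 5.80 in the arrays labelled control. It was also the only one called in 4 weeks minus OVA, where it fell by 1.02 (adjusted p = 0.0212 in limma, lost in 5 of 9 fits without an array), to 6.17, 6.13 and 6.46 in the 4-week arrays. In 4 weeks minus control Kit, the stem cell factor receptor of mast cells, and its ligand Kitl rose by 0.56 and 0.54 on the log2 scale, each lost in 6 of 9 fits. The medians of this list were −0.05, 0.00 and −0.01 in the 3 comparisons.

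Of 5 other STAT genes 4 were measured. Stat3, the transducer of IL-6 type cytokines, had 9.45, 9.52 and 9.38 in the OVA arrays and 9.02, 9.10 and 8.89 in the arrays labelled control (log2 change 0.45, adjusted p = 0.0292 in limma, lost in 6 of 9 fits). At 4 weeks it fell by 0.32 relative to OVA (adjusted p = 0.0401, lost in 8 of 9). Stat6, the transducer of IL-4 and IL-13, had 7.95, 8.20 and 7.91 in the OVA arrays and 7.81, 7.59 and 7.54 in the arrays labelled control, without overlap, but did not pass.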
